A study of Arabidopsis thaliana with 4 samples.

Results

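The 10 genes described here make up the core of the flavonoid and anthocyanin pathway of *Arabidopsis thaliana* and were followed in polyadenylated RNA of whole seedlings. They were chosen by locus identifier from the 33544 genes listed, and all 10 were found. The choice was made with the FPKM (fragment counts scaled to transcript length and library depth) of the same libraries known, so their values between genotypes are a description. Where a count of them called in the fit of all genes is given, it stands beside the share of all genes and nothing is read from it. Seedlings were 14 days old and of 2 genotypes in the Col-0 background: *ect2*, a T-DNA insertion mutant of *ECT2*, and wild-type Col-0. The *ECT2* product is a reader of RNA methylation with a YTH domain. Each genotype had 2 libraries, numbered 1 and 2. The labels do not name the insertion allele, and they give normal growth at 22°C in long days on Murashige and Skoog medium or in soil, without saying which was used for these plants. Whether replicates were grown separately is not given either, so errors measure only the spread between these libraries. In whole seedlings, fewer cells that make pigment and less transcript per cell cannot be told apart.

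Flavonoids are built from phenylalanine through the general phenylpropanoid pathway. Chalcone synthase makes the first flavonoid skeleton, and the following early enzymes convert it to dihydroflavonols. There the pathway forks: flavonol synthase makes flavonols, which act as sunscreens, and the late enzymes make the red and purple anthocyanins. In *Arabidopsis* seedlings the late genes are switched on by a complex of a MYB, a bHLH and a WD40 protein (the MBW complex), while the early genes are under flavonol-specific MYB factors. High light, sugar, cold and nutrient shortage are known to raise the pathway.

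The libraries were of similar breadth, with 18908 to 19114 genes at 1 FPKM or more. Read totals are not given. Low values put the depth of *ect2* replicates 1 and 2 at about 1.39 and 0.966 times that of Col-0 replicate 2, and the depth of Col-0 replicate 1 at about 1.45 times. The mutated gene, *ECT2* (AT3G13460), stood at 9.07 and 8.58 FPKM in *ect2*, against 137 and 76.7 FPKM in Col-0. Its log2 difference was -3.40 ± 0.33 (SE), which did not pass over all genes (limma, adjusted p = 0.153). With a library left out, its adjusted p by limma was 1.0 for either *ect2* library, 0.0221 for Col-0 replicate 1 and 0.00533 for Col-0 replicate 2, and the difference lay between -3.81 and -2.98. The labelled tissue was checked with marker genes. The 4 markers of green tissue summed to 27680 and 33740 FPKM in *ect2* and to 30770 and 31720 FPKM in Col-0. The 4 root markers summed to 1330 and 1571 FPKM in *ect2* and to 1254 and 1217 FPKM in Col-0. Nearly all of the root sum came from *PYK10* (1310 and 1559 FPKM in *ect2*, 1242 and 1206 FPKM in Col-0). *COBL9*, *RHD2* and *EXP7* were at 14.1 FPKM or less in every library. Of 4 floral markers, *AP3* and *AG* were at or near 0 throughout. *PI* stood at 1.42 and 0.921 FPKM in *ect2* and at 0.336 and 0.496 FPKM in Col-0. *SEP3* stood at 5.86 and 15.6 FPKM in *ect2* and at 3.32 and 5.19 FPKM in Col-0. Both *PI* and *SEP3* were higher in *ect2* without overlap, as were 17.5% of all genes tested.

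The 10 genes lie on chromosomes 1, 3, 4 and 5 of TAIR10.1 according to RefSeq, and all are protein-coding. The early enzyme genes are *CHS* at chr5:4488476-4490264 (plus strand), *CHI* at chr3:20430059-20431597 (minus strand), *F3H* at chr3:19025192-19026872 (plus strand) and *F3'H* at chr5:2560328-2563137 (plus strand). The branch gene is *FLS1* at chr5:2803833-2805606 (plus strand). The late enzyme genes are *DFR* at chr5:17164093-17166032 (minus strand), *LDOX* at chr4:12004726-12006209 (minus strand), *UGT75C1* at chr4:8122188-8123835 (minus strand) and *UF3GT* at chr5:21936746-21938396 (minus strand). The regulator is *PAP1* at chr1:21233555-21235292 (minus strand). To show what precedes their starts, the 250 bases upstream of each RefSeq gene start were searched on both strands. The motifs were the G-box CACGTG, bound by bZIP and bHLH factors, the bZIP core ACGT and the E-box CANNTG, which both lie within every G-box, and ACCNANC, which covers the AC-elements bound by plant MYB factors. A G-box stood before 4 of 10 genes (*CHS*, *F3H*, *DFR* and *UF3GT*), against 6.49% of 27438 protein-coding genes. A match to ACCNANC, called an AC-element below, stood before 7 of 10, against 27.8% of all. That string is looser than the AC-elements it covers, so a match need not be one of them. The broader E-box was found before 6 of 10, against 55.3% of all, and ACGT before 4 of 10, against 44.1%. A match of letters is a description and shows no binding. The 5 windows below are printed because they belong to the gene of highest level, to 3 late genes and to the regulator, and they show both motifs. Each runs 5′ to 3′ towards the gene start, with G-boxes and AC-elements in capitals.
*CHS*, chr5:4488226-4488475, plus strand: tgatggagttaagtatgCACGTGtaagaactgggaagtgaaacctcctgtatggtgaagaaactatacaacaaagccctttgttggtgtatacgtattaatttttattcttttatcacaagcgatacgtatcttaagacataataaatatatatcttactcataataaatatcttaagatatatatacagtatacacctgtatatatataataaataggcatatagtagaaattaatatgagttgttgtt
*DFR*, chr5:17166033-17166282, minus strand: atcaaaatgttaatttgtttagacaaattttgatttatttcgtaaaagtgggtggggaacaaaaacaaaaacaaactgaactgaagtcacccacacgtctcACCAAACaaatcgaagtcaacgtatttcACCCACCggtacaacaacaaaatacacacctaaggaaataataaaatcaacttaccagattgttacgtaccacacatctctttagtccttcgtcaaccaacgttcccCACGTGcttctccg
*LDOX*, chr4:12006210-12006459, minus strand: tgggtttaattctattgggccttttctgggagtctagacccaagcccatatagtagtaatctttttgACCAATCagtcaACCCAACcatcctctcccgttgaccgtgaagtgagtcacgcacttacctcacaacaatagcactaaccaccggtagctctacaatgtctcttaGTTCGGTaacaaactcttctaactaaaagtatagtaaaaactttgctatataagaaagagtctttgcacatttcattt
*UF3GT*, chr5:21938397-21938646, minus strand: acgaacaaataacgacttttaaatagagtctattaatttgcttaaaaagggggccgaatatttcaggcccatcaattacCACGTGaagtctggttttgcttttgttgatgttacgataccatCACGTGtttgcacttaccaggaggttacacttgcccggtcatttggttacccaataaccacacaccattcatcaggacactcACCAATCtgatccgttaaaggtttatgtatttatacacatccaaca
*PAP1*, chr1:21235293-21235542, minus strand: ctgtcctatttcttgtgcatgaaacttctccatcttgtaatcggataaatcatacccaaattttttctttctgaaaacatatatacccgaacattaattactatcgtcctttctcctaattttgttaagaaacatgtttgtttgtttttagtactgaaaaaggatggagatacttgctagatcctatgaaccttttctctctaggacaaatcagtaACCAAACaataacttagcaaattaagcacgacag
In the *CHS* window the only capitals are a G-box far from the start. The *DFR* window carries 2 AC-elements and a G-box within 14 bases of the start, *UF3GT* carries 2 G-boxes and 1 AC-element, and *LDOX* carries 3 AC-elements and no G-box.

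**Figure D1:**
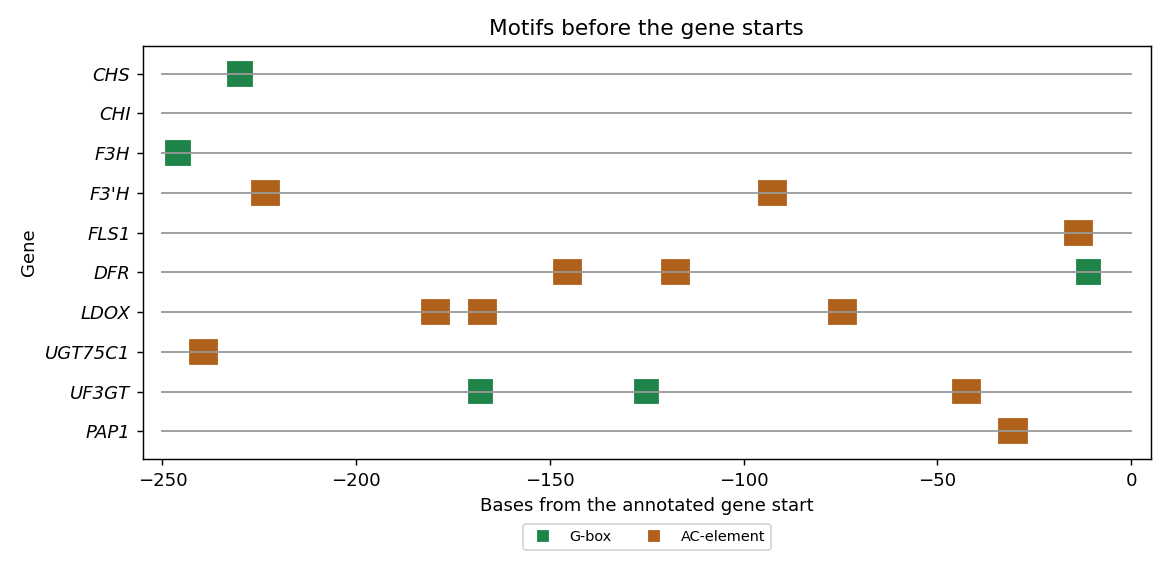
Position of G-boxes and AC-elements in the 250 bases before the RefSeq start of each of the 10 genes (x axis, bases from the start; each line is a gene, each block a motif on either strand). Among the 10 genes, 7 have an AC-element (any match to ACCNANC) and 4 a G-box, and *DFR* and *UF3GT* have both.

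The early enzyme genes had their highest value in 1 wild-type library and lay close together in the other 3. *CHS* (AT5G13930), for chalcone synthase, stood at 61.8 and 57.1 FPKM in *ect2* replicates 1 and 2, against 207 and 45.3 FPKM in Col-0 replicates 1 and 2. Both mutant libraries therefore lay between the 2 wild-type libraries. *CHI* (AT3G55120), for the isomerase that closes the central ring, stood at 10.14 and 11.15 FPKM in *ect2* and at 39.0 and 11.7 FPKM in Col-0. Its genotypes did not overlap, but the gap to Col-0 replicate 2 was small beside the difference between the Col-0 libraries. *F3H* (AT3G51240), for flavanone 3-hydroxylase, stood at 8.499 and 8.949 FPKM in *ect2* and at 30.1 and 9.57 FPKM in Col-0, again without overlap and with a narrow gap. *F3'H* (AT5G07990), for the cytochrome P450 that hydroxylates the B ring, had the lowest level of the early genes, at 1.31 and 1.95 FPKM in *ect2* and 3.91 and 1.19 FPKM in Col-0. Here the mutant libraries were both above Col-0 replicate 2. An annotated long noncoding RNA covers 1588 bases of *F3H* on the other strand and was listed at 0 in 3 libraries and at 0.0530 FPKM in Col-0 replicate 1.

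*FLS1* (AT5G08640), for the flavonol synthase that draws dihydroflavonols into flavonols, stood at 6.98 and 6.13 FPKM in *ect2* and at 29.6 and 9.21 FPKM in Col-0. It was the gene with the clearest separation: both mutant libraries were below both wild-type libraries, and the mutant mean was 0.712 times Col-0 replicate 2. For the other 9 genes that ratio was between 0.912 and 2.32, with *CHI* and *F3H* below 1 and the remaining 7 above it.

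The late genes showed a wider gap between the wild-type libraries than the early ones. *DFR* (AT5G42800), for the reductase that competes with flavonol synthase for dihydroflavonols, stood at 5.84 and 2.75 FPKM in *ect2* and at 18.6 and 1.85 FPKM in Col-0. Both mutant libraries were above Col-0 replicate 2, and they differed from each other by 2.12-fold. *LDOX* (AT4G22880), for the dioxygenase that forms the coloured anthocyanidins, stood at 2.59 and 2.91 FPKM in *ect2* and at 18.9 and 1.99 FPKM in Col-0. *UGT75C1* (AT4G14090), annotated as an anthocyanidin 5-O-glucosyltransferase, stood at 1.46 and 0.855 FPKM in *ect2* and at 9.49 and 0.851 FPKM in Col-0. *ect2* replicate 2 and Col-0 replicate 2 were thus nearly level. The gene shares 230 bases with AT4G14100 on the other strand, whose values were 28.94 and 34.68 FPKM in *ect2* against 55.47 and 38.75 FPKM in Col-0, and 217 bases with the noncoding AT4G06175, which has no row in the tables. Whether counting used strand is not given, so reads from the shared stretch cannot be assigned. *UF3GT* (AT5G54060), for a glycosyltransferase that adds xylose to anthocyanins, stood at 0.355 and 0.388 FPKM in *ect2* and at 5.18 and 0.287 FPKM in Col-0. These values correspond to about 7 and 5 fragments in *ect2* and about 104 and 4 in Col-0, so the low libraries differed by a few fragments.

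*PAP1* (AT1G56650), the MYB75 factor that recruits the MBW complex to late genes, stood at 0.566 and 1.51 FPKM in *ect2* and at 5.37 and 0.786 FPKM in Col-0. The mutant libraries lay on either side of Col-0 replicate 2 and differed by 2.66-fold, on about 8 and 13 fragments. Within the mutant, *PAP1* was higher in replicate 2. The late genes *LDOX* and *UF3GT* were nearly level, higher in replicate 2 by 1.12-fold and 1.09-fold. *LDOX* had about 43 and 32 fragments in replicates 1 and 2, and *UF3GT* about 7 and 5. *DFR* and *UGT75C1* were higher in replicate 1, by 2.12-fold and 1.7-fold. No order of the late genes is read from these single libraries.

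**Figure D2:**
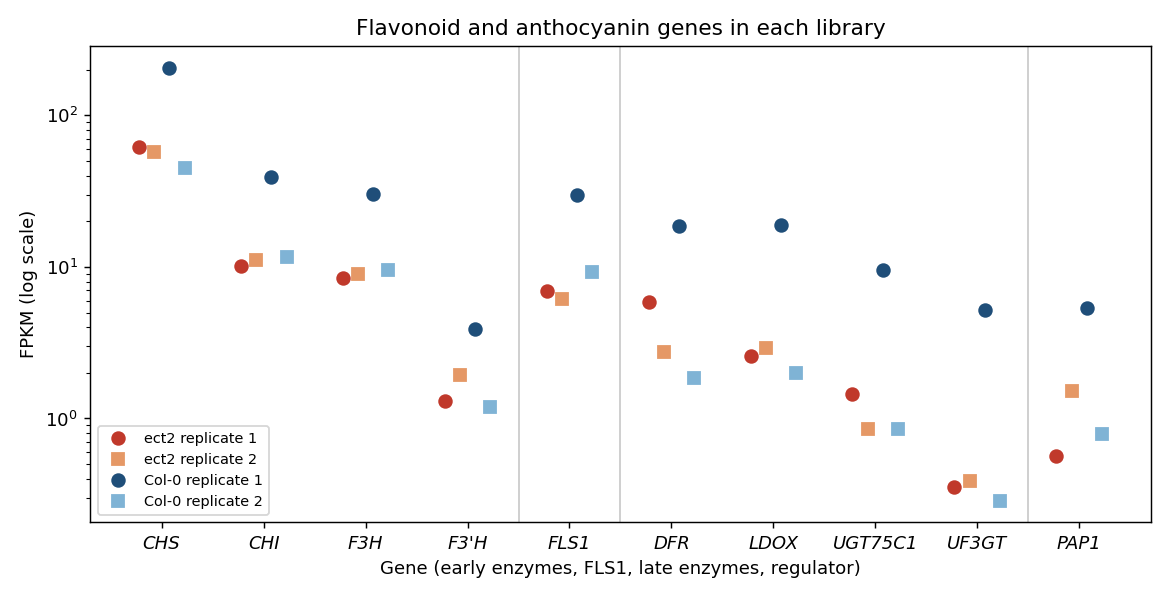
FPKM of each of the 10 genes (x axis, grouped as early enzymes, *FLS1*, late enzymes and regulator) in each library (y axis, log scale; 1 point per library). Col-0 replicate 1 is the highest point for 10 of 10 genes. The 2 *ect2* libraries mostly lie nearer to Col-0 replicate 2. *DFR* in *ect2* replicate 1 (5.84 FPKM) lies well above Col-0 replicate 2 (1.85 FPKM).

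Col-0 replicate 1 had the highest value for 10 of 10 genes, where it did so for 31.2% of the 19308 genes tested. It exceeded Col-0 replicate 2 by at least 3-fold for 10 of 10, against 1.82% of all. These counts use the values known when the genes were chosen and are given as a description. The fold between the 2 wild-type libraries was 3.14 to 4.56 for the 4 early genes, 3.21 for *FLS1*, 6.83 for *PAP1*, and 9.47 for *LDOX*, 10 for *DFR*, 11.2 for *UGT75C1* and 18.0 for *UF3GT*. Among these 10 genes the early and late ranges did not overlap, which was not so beyond them: *4CL3*, upstream of *CHS*, had a fold of 5.84, and the acyltransferase-family gene AT1G03495 of the anthocyanin list one of 1.05. Between the *ect2* libraries the ratio of replicate 1 to replicate 2 was 0.672 to 1.08 for the early genes and 0.89 to 2.12 for the late genes, so those ranges overlapped.

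Summed over the 4 late genes, FPKM came to 12.5% and 8.73% of the sum of the 4 early genes in *ect2*, and to 18.6% and 7.36% in Col-0. The share was highest in Col-0 replicate 1, and the mutant libraries lay between the 2 wild-type ones. In every library *CHS* gave most of the early sum, and *DFR* with *LDOX* most of the late sum. In Col-0 replicate 1, for example, *CHS* gave 206.6 of 279.6 FPKM, so the share follows these genes above all. At the fork, the FPKM of *FLS1* was 1.20 and 2.23 times that of *DFR* in *ect2*, and 1.60 and 4.97 times in Col-0. *FLS1* was thus above *DFR* in every library, and the genotypes overlapped.

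Between genotypes, the mean of *ect2* was below that of Col-0 for 10 of 10 genes, and the log2 difference was below 0 for 9 of 9 genes tested, beside 51.2% of all genes. The ratio of means ran from 0.136 for *UF3GT* to 0.639 for *F3'H*. *CHS* averaged 59.4 ± 3.30 FPKM in *ect2* and 125.9 ± 114 FPKM in Col-0 (SD, n = 2 each), and *FLS1* averaged 6.56 ± 0.598 FPKM in *ect2* and 19.4 ± 14.4 FPKM in Col-0. For both genes the wild-type SD was larger than the difference of the means. On the log2(FPKM + 1) scale, which understates changes of low genes, 9 of 10 genes passed the filter of 1 FPKM in at least 2 libraries, and *UF3GT* did not. Their differences ran from -1.23 ± 0.55 (SE) for *FLS1* to -0.33 ± 0.43 for *F3'H*, with a median of -0.90, beside a median of -0.01 over all genes tested. *LDOX* had a difference of -1.04 ± 0.94 and *DFR* one of -0.56 ± 1.02.

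In the fit over all genes with limma, 0 of the 9 genes were called at an adjusted p below 0.05, as were 0.0259% of the 19308 genes tested (0.0104% higher and 0.0155% lower in *ect2*). Of the 9, 3 had genotypes that did not overlap, with *ect2* lower (*CHI*, *F3H* and *FLS1*), beside 20.2% of all genes, and 0 had *ect2* higher without overlap, beside 17.5%. The direction rested on Col-0 replicate 1. Without it the median of the 9 genes was 0.21, 6 of 9 differences were positive, and they ran from -0.44 for *FLS1* to 0.83 for *DFR*, in a fit that called 0.0984% of all genes. Without Col-0 replicate 2 the median was -1.78 and the differences ran from -2.40 to -0.91. That fit called 2.16% of all genes, 0.57% as lower in *ect2*. It sets the mutant against the library in which the 10 genes are highest, so calls among them are not given. Each of these fits leaves Col-0 with 1 library, which is assumed to vary like the *ect2* libraries.

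**Figure D3:**
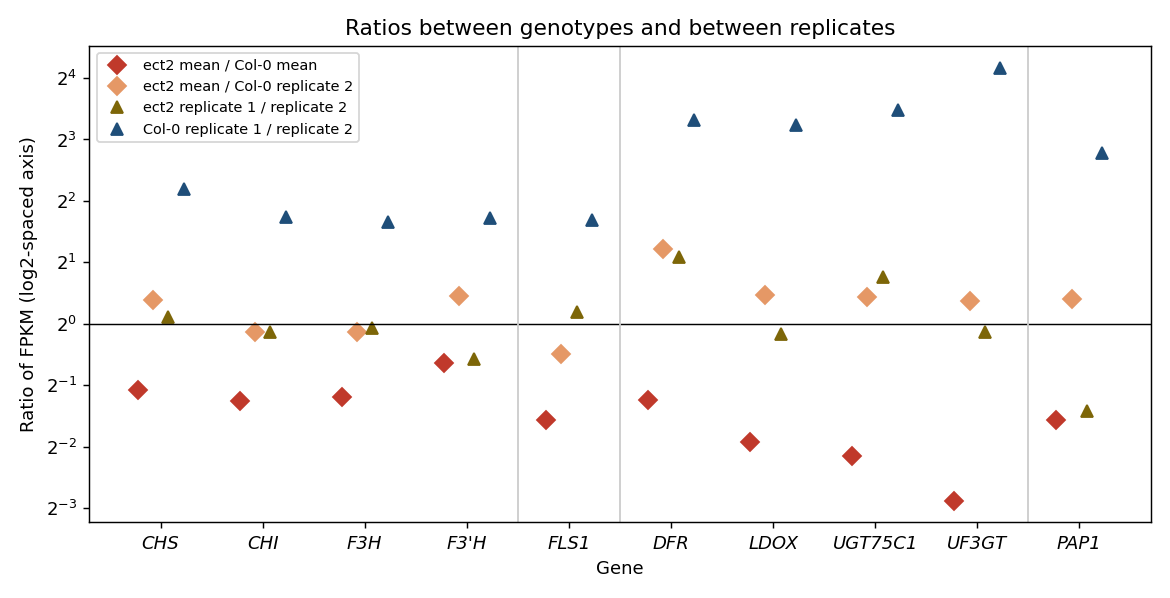
Ratios of FPKM for each of the 10 genes (y axis, spaced by log2; the line marks equal values): *ect2* mean over Col-0 mean, *ect2* mean over Col-0 replicate 2 alone, and replicate 1 over replicate 2 within each genotype. The Col-0 replicate ratio (3.14 to 18.0) lies farther from 1 than the ratio of genotype means for 10 of 10 genes.

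Other genes of the pathway were followed from lists of 54 genes, of which 40 passed the filter. By limma, 0 of 40 passed over all genes in either direction, with 2 of 40 at an unadjusted p below 0.05 (4.86% of all genes tested). Their median log2 difference was -0.28, and 26 of 40 were highest in Col-0 replicate 1. Without that library the median was 0.03. Genotypes did not overlap for 6 of 40 with *ect2* lower and 8 of 40 with *ect2* higher, beside 20.2% and 17.5% of all genes tested.

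In the general phenylpropanoid pathway, which also feeds lignin, the median over 9 genes was -0.13 (0.16 when Col-0 replicate 1 was left out, -0.37 when Col-0 replicate 2 was), and 7 of 9 were highest in Col-0 replicate 1. The Col-0 libraries differed most, by 5.84-fold, in *4CL3*, for the 4-coumarate:CoA ligase tied to flavonoids, which stood at 2.878 and 2.099 FPKM in *ect2* and 8.21 and 1.41 FPKM in Col-0. The ligase gene *4CL1* stood at 31.4 and 45.4 FPKM in *ect2* and at 59.6 and 38.7 FPKM in Col-0. *4CL2* stood at 10.8 and 12.0 FPKM in *ect2* and at 15.3 and 13.2 FPKM in Col-0, without overlap (limma, adjusted p = 0.844). *PAL4*, for a phenylalanine ammonia-lyase, stood at 8.12 and 7.81 FPKM in *ect2* and at 7.28 and 7.03 FPKM in Col-0.

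Flavonol genes had a median of -0.39 over 8 of 11 genes tested. Leaving out Col-0 replicate 1 gave 0.04, and leaving out Col-0 replicate 2 gave -0.94. *CHIL*, a chalcone isomerase-like gene whose product aids chalcone synthase, stood at 16.71 and 24.03 FPKM in *ect2* and at 46.7 and 19.6 FPKM in Col-0. The flavonoid 3-O-glucosyltransferase gene *UGT78D2* stood at 7.67 and 11.9 FPKM in *ect2* and at 27.8 and 11.8 FPKM in Col-0. AT1G06000, annotated as a flavonol 7-O-rhamnosyltransferase, stood at 5.45 and 8.53 FPKM in *ect2* and at 31.29 and 7.004 FPKM in Col-0. The noncoding AT1G06002 covers 1580 bases of it on the other strand and followed the same order, at 12.28 and 14.17 FPKM in *ect2* and 37.52 and 12.07 FPKM in Col-0, so reads of the pair cannot be told apart. Of the *FLS1* relatives *FLS2*, *FLS3*, *FLS4* and *FLS5*, 0 of 4 had their highest value in Col-0 replicate 1. *FLS4* stood at 1.86 and 1.67 FPKM in *ect2* and at 1.14 and 1.53 FPKM in Col-0. *FLS5*, named after its values were seen, had the highest FPKM of these relatives, at 72.9 and 76.4 FPKM in *ect2* and 55.3 and 71.9 FPKM in Col-0.

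All 6 genes that decorate or transport anthocyanins were tested and were highest in Col-0 replicate 1, with a median difference of -0.63. That median came to -0.09 on dropping Col-0 replicate 1, to -1.16 on dropping Col-0 replicate 2 and to -0.21 on dropping *ect2* replicate 1. *TT19*, the glutathione transferase gene needed to bring anthocyanins to the vacuole, stood at 1.27 and 2.82 FPKM in *ect2* and at 19.9 and 2.57 FPKM in Col-0. Its log2 difference of -1.55 ± 0.92 (SE) was the most negative in the list and was not called by limma (adjusted p = 0.842). It was -0.28 without Col-0 replicate 1. *TT19* shares 108 bases with AT5G17230 on the other strand, so reads from that stretch cannot be assigned. AT5G17230 stood at 52.68 and 65.43 FPKM in *ect2* and at 95.32 and 64.31 FPKM in Col-0. *SCPL10* stood at 3.43 and 7.31 FPKM in *ect2* and at 13.65 and 5.26 FPKM in Col-0. Both acyltransferase-family genes AT1G03940 (1.86 and 4.18 FPKM in *ect2*, 6.96 and 3.25 FPKM in Col-0) and AT1G03495 (2.92 and 4.87 FPKM in *ect2*, 5.97 and 5.70 FPKM in Col-0) were lowest in *ect2* replicate 1, and the second did not overlap between genotypes. The malonyltransferase gene *5MAT*, named after its values were seen, had a fold of 27.7 between the Col-0 libraries, at 1.001 and 0.107 FPKM in *ect2* and 5.77 and 0.208 FPKM in Col-0. The low values correspond to about 1 fragment in *ect2* replicate 2 and 3 in Col-0 replicate 2.

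The proanthocyanidin branch, which colours the seed coat, was at or near 0. *BAN*, *TT12*, *TT10*, *AHA10* and *TT2* stayed below 1 FPKM in every library. *TT15*, which is not confined to that branch, stood at 7.67 and 5.62 FPKM in *ect2* and at 8.54 and 7.24 FPKM in Col-0.

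Among activators, the median was -0.39 over 6 of 12 genes tested. It moved to 0.02 with Col-0 replicate 1 left out and to -0.82 with Col-0 replicate 2 left out. Of the MBW MYB genes beside *PAP1*, *PAP2* and *MYB113* were listed at 0 in every library and *MYB114* only in *ect2* replicate 1 above 0, at 0.378 FPKM. The bHLH gene *TT8* stood at 0.0823 and 0.0566 FPKM in *ect2* and at 0.425 and 0.225 FPKM in Col-0. These *TT8* values correspond to about 2 and 1 fragments in *ect2* and about 10 and 4 in Col-0, and the *MYB114* value to about 5. The bHLH gene *GL3* stood at 0.733 and 0.252 FPKM in *ect2* and at 1.13 and 0.562 FPKM in Col-0. *EGL3*, the third bHLH gene, stood at 1.30 and 1.58 FPKM in *ect2* and at 2.71 and 1.39 FPKM in Col-0. The WD40 gene *TTG1* stood at 26.7 and 24.4 FPKM in *ect2* and at 22.1 and 23.8 FPKM in Col-0, so it was the only MBW gene above 10 FPKM. The flavonol MYB gene *MYB12* followed the early genes, at 0.946 and 1.11 FPKM in *ect2* and 3.76 and 1.01 FPKM in Col-0.

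The light-response bZIP genes differed from this pattern. *HYH* stood at 2.03 and 2.87 FPKM in *ect2* and at 10.8 and 6.15 FPKM in Col-0. Both mutant libraries were below both wild-type libraries, and their mean was 0.398 times Col-0 replicate 2. Its log2 difference of -1.42 ± 0.32 (SE) had the smallest p of the 40 genes and was not called by limma (unadjusted p = 0.00537, adjusted p = 0.842). With a library left out, the difference lay between -1.78 and -1.06. For *HYH* it was -1.78 on dropping Col-0 replicate 2 and -1.06 on dropping Col-0 replicate 1. Its relative *HY5*, which binds the promoters of flavonoid genes, stood at 7.91 and 6.58 FPKM in *ect2* and at 11.4 and 9.53 FPKM in Col-0, also without overlap (limma, adjusted p = 0.842).

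Repressors had a positive median, 0.36 over 10 genes (0.08 when Col-0 replicate 1 was left out, 0.61 when Col-0 replicate 2 was), 6 of which were lowest in Col-0 replicate 1, as were 36.0% of all genes. The LBD genes, which repress anthocyanin genes in response to nitrogen, were higher in both *ect2* libraries than in both Col-0 libraries. The same held for 17.5% of all genes tested. *LBD37* stood at 104 and 128 FPKM in *ect2* and at 62.0 and 98.9 FPKM in Col-0, and *LBD39* at 98.6 and 83.1 FPKM in *ect2* and at 47.3 and 77.5 FPKM in Col-0 (both limma, adjusted p = 0.842). In both, Col-0 replicate 2 was nearer to the mutant than to Col-0 replicate 1. *SPL9* and *MYB4* were lower in *ect2* without overlap, as were 20.2% of all genes tested. *MYB4*, a repressor of phenylpropanoid genes, stood at 10.7 and 9.91 FPKM in *ect2* and at 17.2 and 15.4 FPKM in Col-0 (limma, unadjusted p = 0.034, adjusted p = 0.842). *SPL9*, which hinders the MBW complex, stood at 1.68 and 2.01 FPKM in *ect2* and at 3.61 and 2.59 FPKM in Col-0. *MYBL2*, an R3 MYB repressor named after its values were seen, stood at 118 and 95.8 FPKM in *ect2* and at 44.65 and 106 FPKM in Col-0, the reverse of the late genes. With *ect2* and Col-0 replicate 2 nearly level, it was Col-0 replicate 1 that stood low.

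**Figure D4:**
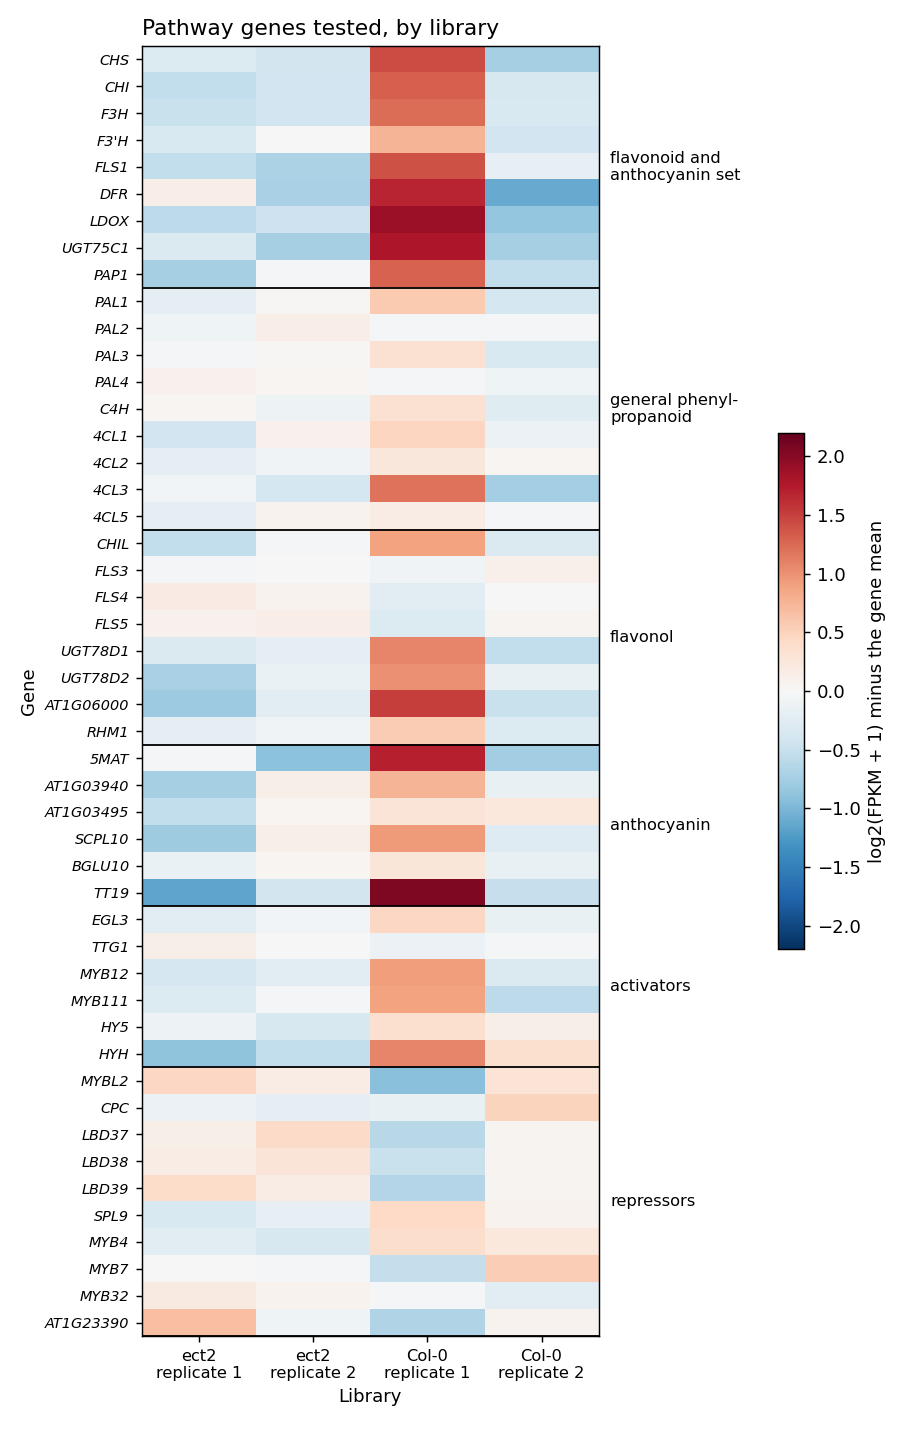
Level of each tested pathway gene other than *TT15* in each library as log2(FPKM + 1) minus the mean of that gene over the 4 libraries (colour; rows are genes grouped by role, columns are libraries). The column of Col-0 replicate 1 is red for 9 of 9 genes of the set and for the anthocyanin genes, while 6 of 10 repressors are lowest in that library.

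Markers of other material and states moved with the same library. The 11 seed storage and oil body genes were highest in Col-0 replicate 1 in 11 of 11 cases, beside 31.2% of all genes tested. They summed to 12.6 and 15.9 FPKM in *ect2* and to 311 and 9.36 FPKM in Col-0. Of these, *SESA1*, *SESA3*, *SESA4* and *CRU2* were listed at 0 in Col-0 replicate 2. The seed coat genes *BAN*, *TT12*, *TT10*, *AHA10* and *TT2* were at 0.0747, 0, 0.234, 0.185 and 0 FPKM in Col-0 replicate 1. In Col-0 replicate 2 they were at 0, 0, 0.203, 0.1345 and 0 FPKM. The *BAN* value corresponds to about 1 fragment. Of 6 genes raised by sugar starvation and darkness, 5 were tested and all 5 were lowest in Col-0 replicate 1, beside 36.0% of all genes tested. The 6 genes summed to 1924 and 1150 FPKM in *ect2* and to 68.4 and 1409 FPKM in Col-0. Both lists were chosen with earlier results of these data known, so these counts are a description. The part of seed material, sugar status or depth in the values of the flavonoid genes was not tested.

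Outside all lists, the 5 genes whose pattern was most like that of the 9 tested genes were found by the distance between mean-centred log2(FPKM + 1) profiles over the 4 libraries. The mean profile of the 9 genes was -0.41 and -0.43 in *ect2* and 1.42 and -0.58 in Col-0. *UGT84A2* (AT3G21560) came closest, at a distance of 0.02, with 8.19 and 8.22 FPKM in *ect2* and 32.1 and 7.28 FPKM in Col-0. *CSLG3* (AT4G23990) and *TBL26* (AT4G01080) followed at 0.20 each, *MES18* (AT5G58310) at 0.24 and AT4G33040 at 0.25. For comparison, the 9 genes themselves lay at 0.19 (*CHS*) to 0.86 (*DFR*) from their own mean.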

How the data were processed

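Messenger RNA selected on oligo(dT) beads was sequenced from whole seedlings in 4 libraries, 2 of *ect2* and 2 of Col-0. Cutadapt, TopHat and the build TAIR10 are named, without versions, per the submitters' processing notes; the quantifier and annotation release are not given. The authors deposited a table of FPKM for each library, made from those alignments; the unit is inferred from a Cufflinks-style identifier column and from sums that differ between libraries and exceed TPM. Depth was approximated from low values, for fragments as the most frequent product of value and transcript length.

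A gene entered the test with 1 FPKM or more in 2 of 4 libraries, which kept 19308 of 33544. Values were fitted as log2(FPKM + 1) using limma (version 3.58.1, R 4.3.3) with trend and robust options. Tests were two-sided, adjusted by Benjamini-Hochberg over all genes, with a threshold of 0.05. The procedure was run on simulated data with normal noise drawn separately for each library. No library was made to deviate there, so a pattern such as that of Col-0 replicate 1 was not covered. An exact permutation test of 1 gene cannot go below p = 0.333 with 2 libraries per genotype, so none was used. Loci and upstream sequences are from RefSeq TAIR10.1, matched by locus tag for 32809 identifiers; the deposited tables hold no coordinates.

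Genes, lists and motifs were chosen with earlier results of these data known. Named genes were the 10 genes, at most 4 of smallest p per list, all MBW genes, *ECT2* and the 5 most alike. The alternatives were: replicate number as a block, each library left out (with the same genes kept), pseudocount 0.1, no filter, a filter of 5 FPKM, equal medians, quantile normalization, and limma without trend or robust options.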

Additional observations from a re-analysis of the deposited data

How the results depend on the processing

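With all 4 libraries kept, the alternatives gave medians of -0.90 to -1.0 for the tested flavonoid and anthocyanin genes, with every difference negative (5 genes at a filter of 5 FPKM), and 4 to 6 genes called over the whole table in place of 5. Leaving out a library gave medians from -1.78 to 0.21 for these genes and from -0.47 to 0.03 for the other pathway genes, both highest without Col-0 replicate 1, and 0 to 417 genes called. The count was 0 without either *ect2* library (limma, 302 and 452 at an unadjusted p below 0.05), 19 when Col-0 replicate 1 was dropped and 417 when Col-0 replicate 2 was. Over the same fits the log2 difference ran from -1.41 to 0.53 for *4CL3*, -1.18 to 0.03 for *CHIL*, -1.23 to 0.01 for *MYB12* and -0.61 to 0.03 for *EGL3*, positive when Col-0 replicate 1 was dropped. *TT19* was at -2.83 and AT1G06000 at -2.04 when Col-0 replicate 2 was dropped, and at -0.28 and -0.03 when Col-0 replicate 1 was. Both genes were highest in Col-0 replicate 1, so calls from the first of these fits are not given. The cause was not tested. With the replicate block, 6 genes were called and the median was -0.90; the libraries share only a number, and their deviations from the group means correlated at 0.0138 across genes. *UF3GT*, *PAP1* and *UGT75C1* rest on about 4 to 29 fragments in each library other than Col-0 replicate 1.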
